A study of Homo sapiens with 12 samples.

Results

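Matrix metalloproteinases (MMPs) are zinc-dependent proteases that cut the proteins of the extracellular matrix and many cell surface proteins. This account covers 10 of their genes, MMP1, MMP2, MMP3, MMP7, MMP9, MMP10, MMP12, MMP13, MMP14 and MMP28, chosen by symbol from the 39368 gene symbols that each count table lists. The choice was made with earlier results of these data known. The other 13 human MMP genes in the tables are described as background. RNA-seq was performed on CAL27 and HSC3 cells, established HPV-negative lines of head and neck squamous cell carcinoma (HNSCC). Both lines carry tet-MUC1shRNA, a doxycycline-inducible vector that expresses an shRNA against MUC1, the gene of a transmembrane mucin, in vector-transduced cells selected with puromycin. Each line was treated for 7 days with vehicle (0.1% DMSO) or with 500 ng/mL doxycycline (DOX), with 3 libraries in each of the 4 groups. None of these libraries came from cells with a control shRNA, so that DOX itself and MUC1 silencing cannot be told apart in them.

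Most MMPs are secreted as inactive proenzymes, which other proteases activate by removing a propeptide, and tissue inhibitors of metalloproteinases (TIMPs) block the active enzymes. MMP1 and MMP13 are collagenases that cleave fibrillar collagen, MMP3 and MMP10 are stromelysins with many matrix substrates, MMP7 is matrilysin and MMP12 is the metalloelastase. MMP2 and MMP9 are the gelatinases, which also cleave basement membrane type IV collagen. MMP14 is anchored in the cell membrane and activates proMMP2, and MMP28 is epilysin, an enzyme of keratinocytes. In squamous carcinomas these enzymes are known for the breakdown of basement membrane and stroma at the invading edge.

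Of these 10 genes, 6 lie in 1 cluster on the long arm of chromosome 11. In GENCODE v44 on GRCh38 the cluster spans chr11:102520508-102955732, or 435 kb, and holds 9 MMP genes, all on the minus strand, in the order MMP7, MMP20, MMP27, MMP8, MMP10, MMP1, MMP3, MMP12 and MMP13. The remaining 4 lie on other chromosomes, with MMP2 at chr16:55389700-55506691, MMP9 at chr20:46008908-46016561, MMP14 at chr14:22836560-22849041 and MMP28 at chr17:35756249-35795707. Promoters from RefSeq (GRCh38.p14) were matched for 3 of the 10, MMP7 and MMP10 from the cluster and MMP14 from outside it. They are shown as the promoters of these genes that the table holds, not for how the genes responded. Each run is the 250 bases before the annotated start, 5′ to 3′ on the strand of the gene, at chr11:102530748-102530997 (minus strand) for MMP7, chr11:102780629-102780878 (minus strand) for MMP10 and chr14:22836335-22836584 (plus strand) for MMP14. Capitals mark matches on either strand to TGANTCA (the AP-1 motif), TATAAA (the TATA box), AGGAAG (the PEA3 motif of ETS factors) or TTCNNNGAA (the STAT motif).
MMP7: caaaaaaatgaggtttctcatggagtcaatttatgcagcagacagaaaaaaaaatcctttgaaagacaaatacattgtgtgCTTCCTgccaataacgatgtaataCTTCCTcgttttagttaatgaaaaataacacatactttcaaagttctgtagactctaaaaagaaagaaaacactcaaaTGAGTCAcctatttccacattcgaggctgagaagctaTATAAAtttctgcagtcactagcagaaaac
MMP10: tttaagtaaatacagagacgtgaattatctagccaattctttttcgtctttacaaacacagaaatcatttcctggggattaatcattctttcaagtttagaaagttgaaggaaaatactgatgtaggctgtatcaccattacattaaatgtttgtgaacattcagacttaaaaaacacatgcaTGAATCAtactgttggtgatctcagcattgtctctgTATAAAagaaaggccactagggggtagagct
MMP14: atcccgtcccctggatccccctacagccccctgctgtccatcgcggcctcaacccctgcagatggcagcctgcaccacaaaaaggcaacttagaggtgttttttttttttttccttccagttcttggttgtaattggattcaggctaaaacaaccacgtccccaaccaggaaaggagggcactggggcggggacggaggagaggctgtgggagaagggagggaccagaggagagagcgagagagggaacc
In the MMP7 and MMP10 windows an AP-1 match lay at the same place, from base -67 to base -61 counted back from the start, as TGAGTCA in MMP7 and TGAATCA in MMP10. The TATAAA match began at base -30 in MMP7 and at base -31 in MMP10. MMP7 also held 2 PEA3 matches on the opposite strand, beginning at bases -169 and -145. The MMP14 window had no match to any of the 4 motifs. Among all 35116 promoter windows of this length in the table, 6.57% held the AP-1 letters, 10.7% the TATA letters, 28.7% the PEA3 letters and 6.57% the STAT letters. No 2 of these motifs overlapped in the windows shown.

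Sequencing was deep, and the CAL27 libraries summed to between 97477659 and 126328662 counts in the vehicle group and between 92866845 and 117677241 in the DOX group. The HSC3 libraries summed to between 89730914 and 130393198 and between 134231542 and 169065103 counts. Several counts appeared to stand for 1 molecule. The estimate came from the share of zeros, which differences between cultures would raise as well. It was 2.45 to 3.33 in the CAL27 libraries. In HSC3 cells it was 4.18 to 7.43 with vehicle and 8.93 to 17.2 with DOX, where replicate 1 with DOX was the highest. In HSC3 cells this estimate therefore moved with DOX, and its part in the results for the MMPs with few counts was not tested beyond dividing the counts by it. Levels are given as CPM, counts scaled to the library size and normalized by the TMM method within a line, and 3 counts, used as the floor of detection, were worth 0.0177 to 0.0334 CPM. In the HSC3 libraries 3 counts were fewer than the estimate for 1 molecule, so that levels just above this floor may stand for less than 1 molecule. These limits cover counting error only. The labels say that cells were cultured in triplicate, and p-values measure the spread between these cultures.

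The libraries were checked against the targeted gene and the labelled cell type. MUC1 was at 63.9, 58.9 and 59.9 CPM in the vehicle libraries and at 3.19, 3.06 and 3.58 CPM in the DOX libraries of CAL27 cells. In HSC3 cells its levels were 1.51, 1.78 and 1.5 CPM with vehicle and 0.279, 0.244 and 0.120 CPM with DOX. On the log2 scale MUC1 fell by 4.21 in CAL27 cells (SE 0.0666, adjusted p = 1.62e-19) and by 2.88 in HSC3 cells (SE 0.376, adjusted p = 0.000202), and no library of either DOX group reached the vehicle range. All 10 markers of squamous epithelium had counts in every group, led by the basal keratin KRT5 at 4080 ± 60.3 CPM (SD, n = 3) in vehicle-treated CAL27 and 2630 ± 150 CPM in vehicle-treated HSC3 cells. The summed level of these markers was lower with DOX, with a median of 7410 CPM against 4450 in CAL27 cells and of 6310 against 4450 in HSC3 cells. Of the 10, KRT14, KRT5, KRT6A, KRT17 and TP63 were called lower in CAL27 cells and all of these but KRT17 in HSC3 cells. The simple epithelial keratins KRT8 and KRT18 were called higher in both. Beside these, 5.11% of all genes were called lower in CAL27 and 4.4% in HSC3 cells, and 1.31% and 1.58% were called higher. The calls of KRT5 in HSC3 cells (-1) and TP63 in CAL27 cells (-1.01) lay at the fold threshold. KRT14, the main partner of KRT5, fell by 2.90 in CAL27 and by 1.88 in HSC3 cells on the log2 scale. These keratin changes moved with the MMP changes given next, and their part in them was not tested.

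Markers of other cell types that make MMPs in tumours were measured beside the MMPs. The summed level of 8 fibroblast markers had a median of 15.1 CPM with vehicle and 11.4 with DOX in CAL27 cells, most of it from COL1A1 (9.26 ± 0.633 and 8.61 ± 0.17 CPM), with COL3A1 at 0 in all 6 libraries. In HSC3 cells the medians were 4.49 and 7.23 CPM, COL1A1 again led (4.18 ± 0.293 and 6.92 ± 1.48 CPM), and COL1A2, COL3A1 and DCN had no counts in either group. Of the fibroblast markers, 4 could be tested in CAL27 cells and LUM (-1.97) and PDGFRB (-1.02) were called lower, beside 5.11% of all genes, while in HSC3 cells 1 could be tested, which had an unadjusted p under 0.05 and was not called. PDGFRB was not called without vehicle replicate 1 (-0.98), DOX column 4 (-0.76) or DOX column 5 (-0.95). The 6 macrophage and leukocyte markers summed to medians of 8.27 CPM (vehicle) and 8.73 CPM (DOX) in CAL27 cells, where CD14 led at 5.17 ± 0.242 and 4.26 ± 0.686 CPM. They summed to 2.66 and 1.83 CPM in HSC3 cells, with CD163 and LYZ at 0 throughout, CSF1R the highest with vehicle (1.11 ± 0.274 CPM) and CD14 with DOX (0.770 ± 0.536 CPM). Of these 6, 3 were tested in each line, none was called in CAL27 cells in edgeR (3 at an unadjusted p under 0.05), and ITGAM was called lower in HSC3 cells (-2.11, adjusted p = 0.0414), a call that was lost when vehicle replicate 1, 2 or 3 or DOX replicate 2 was left out. The 3 endothelial markers had a median of 16.6 CPM in CAL27 cells with vehicle and 10.8 CPM with DOX, nearly all from CDH5 (16.1 ± 0.171 and 11 ± 1.83 CPM), and of 0.352 and 0.190 CPM in HSC3 cells, mostly VWF (0.309 ± 0.058 and 0.179 ± 0.053 CPM). CDH5 had 1551 to 2048 counts in each vehicle-treated CAL27 library. None of the endothelial markers was called in either line by edgeR, with 2 of 2 tested lower at an unadjusted p under 0.05 in CAL27 cells and 0 of 1 in HSC3 cells. The part of these markers in the MMP results was not tested.

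At baseline, the 2 lines expressed different sets of MMPs. Compared per kb of exon, which allows levels of different genes to be set side by side, vehicle-treated CAL27 cells were led by the collagenase MMP13 at 392 ± 25.5 CPM per kb (SD, n = 3), followed by MMP10 at 182 ± 9.68 and MMP1 at 170 ± 8.31. The ranges of MMP10 and MMP1 overlapped. MMP14 came next at 25.4 ± 0.786, then MMP12 (9.95 ± 0.507), MMP7 (3.37 ± 0.253), MMP3 (1.55 ± 0.0401), MMP28 (0.712 ± 0.0777) and MMP2 (0.587 ± 0.0869 CPM per kb), where MMP28 and MMP2 overlapped and all other neighbours in this order did not. MMP9 had no count in any of the 6 CAL27 libraries.

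In vehicle-treated HSC3 cells the membrane-bound MMP14 led at 113 ± 4.03 CPM per kb, ahead of MMP1 at 83.4 ± 3.72 and, far below, MMP10 at 7.32 ± 1.12. MMP2 (3.45 ± 0.300) and MMP3 (2.93 ± 0.525 CPM per kb) overlapped in range, and MMP9 followed at 1.10 ± 0.0381. MMP13, the leading MMP of CAL27 cells, was at 0.552 ± 0.102 CPM per kb and overlapped with MMP28 (0.444 ± 0.128). MMP12 (0.240 ± 0.11) and MMP7 (0.0894 ± 0.0563 CPM per kb) came last and overlapped as well. The 10 genes summed to 786 ± 23.4 CPM per kb in CAL27 and to 212 ± 8.67 in HSC3 cells, of which MMP13 held 49.8% in CAL27 and MMP14 held 53.1% in HSC3 cells. MMP7 and MMP10, whose promoter windows are shown above, were at 3.37 and 182 CPM per kb in vehicle-treated CAL27 cells. Any part of the motif letters in the levels was not tested.

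**Figure D1:**
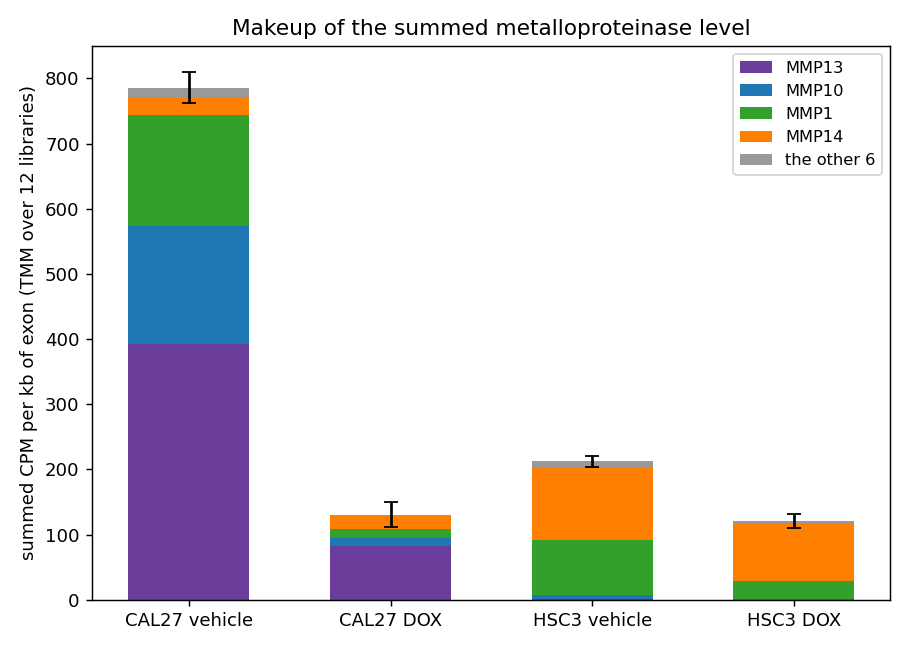
Stacked bars give the mean level of each MMP in CPM per kb of exon, normalized over all 12 libraries, for the 4 groups of 3 libraries, with error bars of 1 SD of the sum. MMP13, MMP10 and MMP1 make up most of the 786 CPM per kb of vehicle-treated CAL27 cells, and MMP14 and MMP1 most of the 212 of vehicle-treated HSC3 cells, while the DOX groups sum to 130 and 121.

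The difference between the lines was tested in 1 edgeR fit of all 12 libraries. Of all 20694 genes tested, 18.7% were called lower and 13.2% higher in HSC3 cells at an adjusted p under 0.05 and a fold change over 2. Among the 10 MMPs, 5 were called lower in HSC3 cells, namely MMP13 (fell by 9.48 on the log2 scale, SE 0.217), MMP12 (-5.40, SE 0.341), MMP7 (-5.18, SE 0.505), MMP10 (-4.64, SE 0.271) and MMP1 (-1.03, SE 0.132), with adjusted p-values from 1.16e-14 to 4.82e-06. All 5 lie in the chromosome 11 cluster. Another 3 were called higher in HSC3 cells, MMP2, MMP14 and MMP9, all outside the cluster. MMP2 was higher by 2.56 (SE 0.132, adjusted p = 1.15e-10) and MMP14 by 2.15 (SE 0.0841, adjusted p = 4.35e-12). MMP9 was at 290, 209 and 320 counts in the vehicle-treated HSC3 libraries and at 0 in CAL27 cells, so that its fold depends on the floor assumed. It was 316-fold against 3 counts over the whole CAL27 vehicle group (0.00816 CPM). Against the floor of 3 counts in each library (0.0237 to 0.0308 CPM) the fold is smaller. MMP3, which also lies in the cluster, went the other way from the 5 cluster genes called lower. It was 1.88-fold higher in HSC3 cells (log2 0.91, SE 0.168, adjusted p = 0.000198), under the fold threshold. MMP28 (-0.68, SE 0.542, adjusted p = 0.291) did not pass the test. Without HSC3 vehicle replicate 3 the difference of MMP7 was -5.81. The lines were grown in different media and counted in separate tables, and these cannot be told apart from the line.

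In CAL27 cells most of these 10 MMPs were lower with DOX. Because they were chosen with earlier results of these data known, the shares of all genes set beside them, in both lines, are a description and not a test. Of the 10 genes, 9 could be tested and 8 were called lower with DOX, beside 5.11% of all 19239 genes tested in this line, and none was called higher, beside 1.31%, with none higher at an unadjusted p under 0.05 in edgeR and none called higher by DESeq2. All 9 were lower at an adjusted p under 0.05, beside 21.8% of all genes without the fold threshold, and in all 9 the DOX libraries lay below the vehicle range, beside 26.3%. The median log2 fold change was -2.71 over the 9 and -0.0052 over all genes. MMP10, MMP12 and MMP1 were the 8th, 9th and 14th most reduced of the 19239 genes by fitted log2 fold change. In bulk libraries, fewer cells that express a gene and less RNA per cell cannot be told apart.

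Both collagenases fell, each from a high level. MMP1 was at 491, 507 and 543 CPM in the vehicle libraries and at 53.2, 41.1 and 30.3 CPM in the DOX libraries, a 12.4-fold reduction (fell by 3.63 on the log2 scale, SE 0.245, adjusted p = 0.000343). MMP13 was at 1260, 1140 and 1270 CPM with vehicle and at 283, 250 and 237 CPM with DOX, which is a 4.76-fold reduction (log2 -2.25, SE 0.0647, adjusted p = 1.2e-11). The groups were far apart for both genes, and MMP13 still had 23294 to 27755 counts in each DOX library. Of the MMP1 exons 8.14% lie under the antisense gene WTAPP1, and whether the counting used strand is not given.

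The stromelysins fell as well, though from very different levels. MMP10 went from 331, 374 and 354 CPM with vehicle to 33.4, 20.6 and 13.4 CPM with DOX, the lowest fitted log2 fold change of the 9 tested (-3.98, SE 0.387, adjusted p = 0.00135). The DOX libraries of MMP10 were spread widely but stayed far below the vehicle range, with the column numbered 4 the highest. MMP3, which shares 3.18% of its 50-base stretches with MMP10, was at 3.13, 3.12 and 3.27 CPM with vehicle and at 0.438, 0.568 and 0.359 CPM with DOX (log2 -2.81, SE 0.180, adjusted p = 1.19e-10). Reads from these shared stretches could be assigned to either gene. At even coverage they would carry 11.9 CPM of MMP10 with vehicle and 0.756 CPM with DOX in CAL27 cells, more than the whole level of MMP3 (3.17 and 0.455 CPM), so that the level and the reduction of MMP3 in this line are uncertain. MMP2 shares 2.7% of such stretches with an overlapping gene without a name, and MMP7, MMP12, MMP13, MMP14 and MMP28 share none with another gene.

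Matrilysin and the metalloelastase followed the same direction. MMP7 was at 8.34, 8.14 and 9.34 CPM with vehicle and at 1.79, 1.22 and 0.975 CPM with DOX (log2 -2.71, SE 0.162, adjusted p = 2.99e-09). MMP12 went from 18.7, 20.8 and 20.5 CPM to 1.54, 1.25 and 1.09 CPM, a 15.5-fold reduction (log2 -3.95, SE 0.104, adjusted p = 4.31e-16). The 3 DOX libraries lay close together for MMP12, and the column numbered 4 was the highest for both genes. That column was the highest DOX library for 6 of the 9 MMPs with counts, and with it left out the number called lower was still 8.

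Outside the cluster, the gelatinase MMP2 was at 2.53, 3.15 and 3.45 CPM with vehicle and at 0.876, 0.815 and 0.924 CPM with DOX (log2 -1.80, SE 0.163, adjusted p = 1.77e-08). MMP28 was at 2.61, 2.20 and 2.68 CPM with vehicle and at 0.605, 0.504 and 0.872 CPM with DOX (log2 -1.90, SE 0.194, adjusted p = 9.66e-08). MMP14 was the exception in size, at 125, 135 and 129 CPM with vehicle and 110, 100 and 94.5 CPM with DOX. It was 1.28-fold lower (log2 -0.35, SE 0.0499, adjusted p = 1.29e-05), past the p threshold but not the fold threshold. The summed level of the 10 genes was 130 ± 19.2 CPM per kb with DOX, and the share of MMP13 was 63.9% and that of MMP14 15.5%, against 3.24% of MMP14 with vehicle. MMP13 remained first in the order of levels at 82.5 ± 8.14 CPM per kb and MMP14 was second at 20 ± 1.68, ahead of MMP1 (13.8 ± 3.89) and MMP10 (11.6 ± 5.31), whose ranges overlapped.

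**Figure D2:**
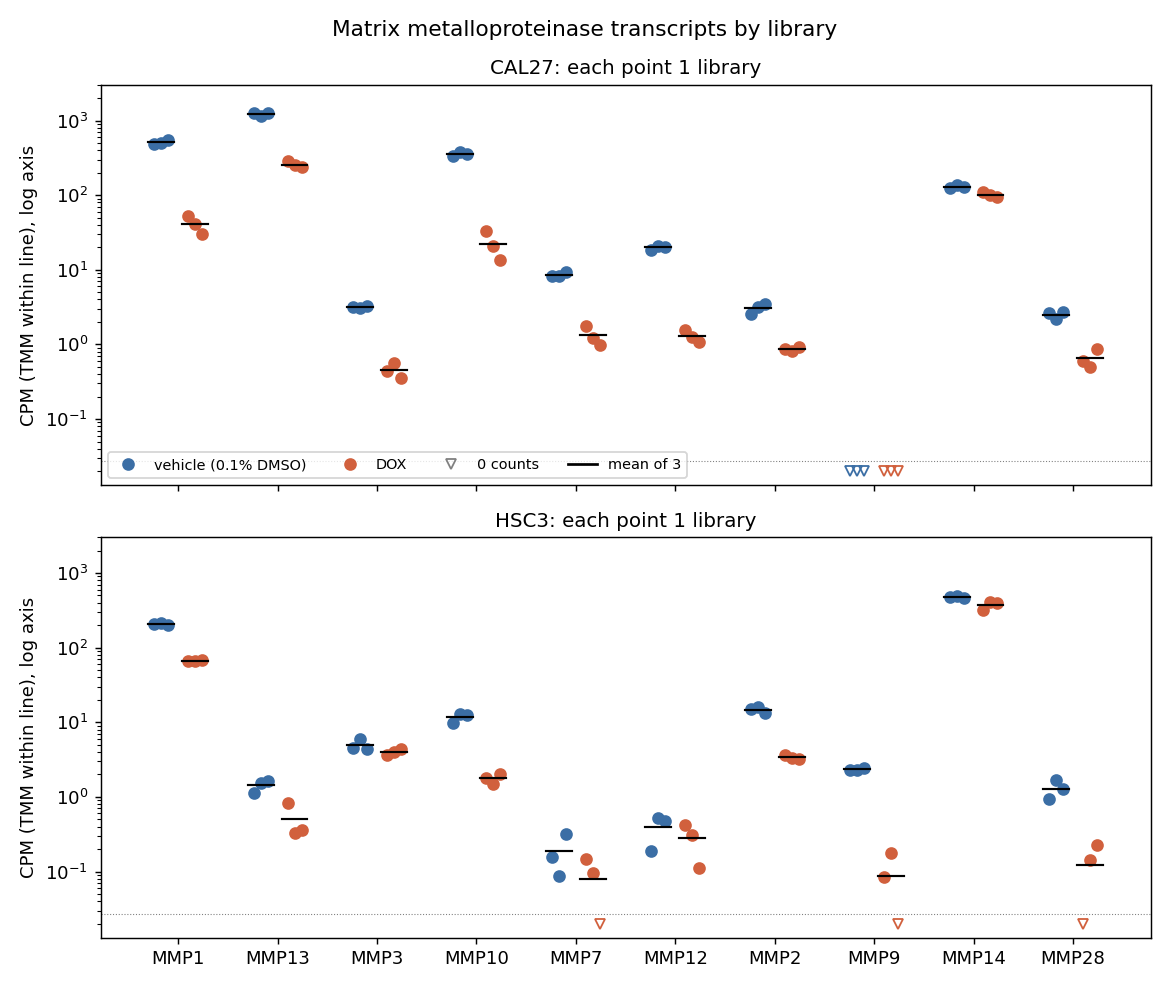
Each point is the level of 1 MMP in 1 library, in CPM normalized within the line on a log axis, with vehicle in blue, DOX in orange, a bar at the mean of 3 libraries and open triangles for libraries with 0 counts. In CAL27 cells the vehicle and DOX points separate for 9 genes and MMP9 has 0 counts throughout, whereas in HSC3 cells those of MMP7 and MMP12 overlap.

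In HSC3 cells the gelatinases, the collagenases, MMP10 and MMP28 were lower with DOX. All 10 could be tested, and 6 were called lower with DOX (MMP1, MMP2, MMP9, MMP10, MMP13 and MMP28), beside 4.4% of all 18021 genes tested, and none was called higher, beside 1.58%, with none higher at an unadjusted p under 0.05 and none by DESeq2. The median log2 fold change was -1.55 over the 10 and -0.0097 over all genes. Without DOX replicate 1, the library with the highest estimate of counts per molecule, the number called lower was again 6.

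MMP1, the most abundant of the 6 MMPs called lower in this line, was at 209, 216 and 199 CPM with vehicle and at 66.8, 65.7 and 68.8 CPM with DOX (log2 -1.63, SE 0.0612, adjusted p = 6.53e-08). The 3 DOX libraries lay within a few CPM of each other, well below the vehicle range. The other collagenase, MMP13, was low in this line, at 1.12, 1.54 and 1.61 CPM with vehicle and 0.837, 0.325 and 0.361 CPM with DOX (log2 -1.48, SE 0.401, adjusted p = 0.0177). Its DOX libraries lay below the vehicle range, as did those of 22.8% of all genes in this line, but the call was lost when vehicle replicate 2 (adjusted p = 0.0704), vehicle replicate 3 (0.0754) or DOX replicate 3 (0.0587) was left out.

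The stromelysins parted in HSC3 cells. MMP10 went from 9.69, 12.9 and 12.6 CPM with vehicle to 1.82, 1.5 and 2.04 CPM with DOX, which is 6.55-fold lower (log2 -2.71, SE 0.171, adjusted p = 1.24e-06). MMP3 was at 4.46, 5.93 and 4.43 CPM with vehicle and at 3.60, 3.97 and 4.33 CPM with DOX (log2 -0.31, SE 0.169, adjusted p = 0.207). The MMP3 libraries did not overlap between the groups, but the distance was small beside their spread and the test was not passed. With DOX, MMP3 was the third in the order of levels, at 2.36 ± 0.205 CPM per kb, ahead of MMP10 at 1.12 ± 0.171, with no overlap.

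MMP7 and MMP12 had few counts in HSC3 cells and did not pass the test. MMP7 had 20, 8 and 42 counts in the vehicle libraries against 24, 14 and 0 in the DOX libraries (log2 -1.22, SE 1.21, adjusted p = 0.524). That value was -0.61 without vehicle replicate 3, -0.66 without DOX replicate 3 and -1.96 without DOX replicate 1, and was not called in any of these. MMP12 had 24, 48 and 62 counts in the vehicle libraries against 70, 46 and 15 in the DOX libraries (log2 -0.48, SE 0.655, adjusted p = 0.658). With 1 library left out it ran from -0.89 (without DOX replicate 1) to -0.11 (without DOX replicate 3). The groups overlapped for both, and no HSC3 library held more than an estimated 5.66 molecules of MMP7 or 11.5 of MMP12.

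Both gelatinases fell. MMP2 was at 14.9, 15.9 and 13.5 CPM with vehicle and at 3.60, 3.36 and 3.18 CPM with DOX (log2 -2.13, SE 0.125, adjusted p = 7.51e-07). MMP9 had 290, 209 and 320 counts (2.29, 2.30 and 2.45 CPM) with vehicle and 14, 26 and 0 counts (0.0849, 0.176 and 0 CPM) with DOX. This was the largest fitted reduction among the 10 MMPs in HSC3 cells (log2 -4.72, SE 0.679, adjusted p = 0.000392), and it was -5.66 without DOX replicate 2. The 26 counts stood for an estimated 2.91 molecules, and 18.4% of the MMP9 exons lie under the antisense gene SLC12A5-AS1, with which the gene shares 11.1% of its 50-base stretches, so the size of the fold change is uncertain.

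The last pair of genes differed in the size of their changes. MMP14, at 477, 487 and 457 CPM with vehicle and 317, 414 and 394 CPM with DOX, was 1.26-fold lower (log2 -0.34, SE 0.0896, adjusted p = 0.0163), short of the fold threshold. MMP28 had 118, 151 and 166 counts in the vehicle libraries against 0, 21 and 30 in the DOX libraries (log2 -3.41, SE 0.846, adjusted p = 0.0113). Its reduction was -2.80 without DOX replicate 1 and -4.19 without DOX replicate 3, and without vehicle replicate 2 the call was lost (adjusted p = 0.0601). The 10 genes summed to 121 ± 11.2 CPM per kb with DOX, of which MMP14 held 73.6%. The summed DOX levels ran from 113 to 151 CPM per kb in CAL27 and from 108 to 129 in HSC3 cells and overlapped, whereas those with vehicle (763 to 810 and 204 to 221) did not.

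**Figure D3:**
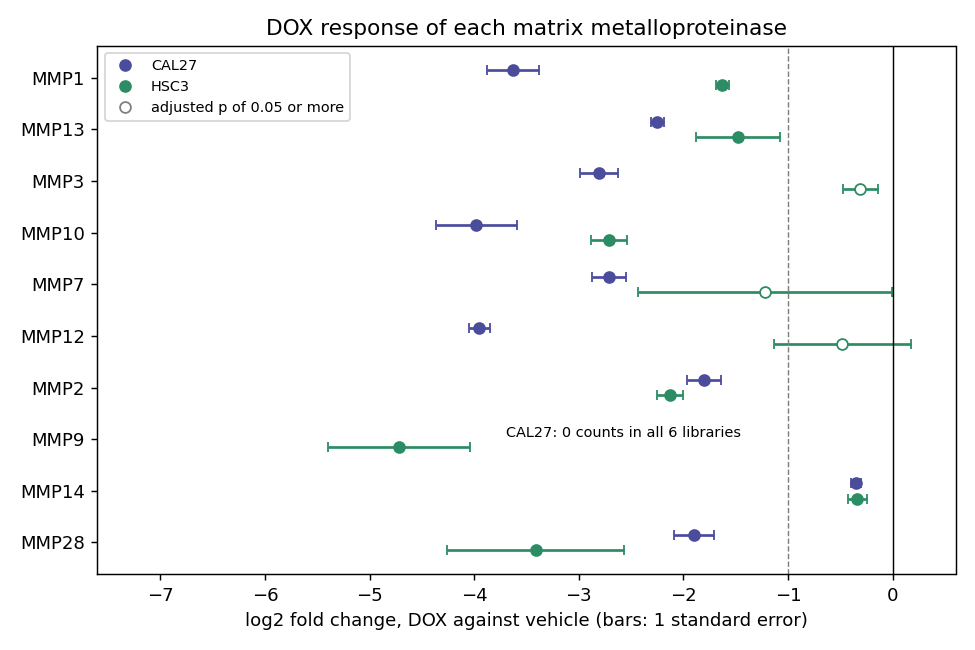
Points give the log2 fold change of DOX against vehicle for each MMP in CAL27 and HSC3 cells, with bars of 1 standard error, open points where the adjusted p was 0.05 or more, and a dashed line at the fold threshold of -1. MMP1, MMP3, MMP10 and MMP12 lie further to the left in CAL27 than in HSC3 cells, and MMP14 lies at -0.35 and -0.34.

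The difference in response between the lines was tested directly, as the interaction of line and DOX over all 12 libraries. MMP9 has no CAL27 counts and gives no such test. Of the other 9, 4 had a response in HSC3 cells that was called higher than in CAL27 cells, that is, a smaller reduction, beside 2.19% of all genes, and none was called lower, beside 3.02%, or was lower at an unadjusted p under 0.05 or by DESeq2. The difference was 3.52 for MMP12 (SE 0.483, adjusted p = 9.47e-05), 2.49 for MMP3 (SE 0.255, adjusted p = 6.71e-06), 2.00 for MMP1 (SE 0.188, adjusted p = 3.26e-06) and 1.26 for MMP10 (SE 0.368, adjusted p = 0.0274), all on the log2 scale. These 4 genes lie next to each other in the cluster. MUC1 also fell less in HSC3 cells, by a difference of 1.36 (SE 0.247, adjusted p = 0.00101). After division by the counts per molecule the differences were 1.26 for MMP10 and 1.31 for MUC1, and were not called (adjusted p = 0.289 and 0.0965). The value of MMP3 rests on its CAL27 counts, which are uncertain as given above.

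The remaining 5 were not called. The differences were 1.48 for MMP7 (adjusted p = 0.199), 0.81 for MMP13 (0.074), -0.33 for MMP2 (0.268) and -1.51 for MMP28 (0.236). For MMP14 it was 0.01 (SE 0.114, adjusted p = 0.976), the smallest in size of the 9. The call of MMP10 was lost without HSC3 DOX replicate 1 (adjusted p = 0.143) or without CAL27 DOX column 5 (0.0649), and without HSC3 DOX replicate 1 the differences were 0.74 for MMP7, 0.22 for MMP13 and -0.88 for MMP28. MMP13 was called without HSC3 DOX replicate 2 (1.06, adjusted p = 0.0151) and without HSC3 DOX replicate 3 (1.00, 0.0304). Without the latter MMP7 was called as well (2.02, 0.0188) and MMP28 was at -2.27, and without HSC3 vehicle replicate 3 MMP7 was at 2.12.

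Genes around the cluster were examined because 6 of the 10 MMPs share it. On the MMP7 side, TMEM123, 50.1 kb away, had a log2 fold change of -0.28 in CAL27 cells (SE 0.0386, adjusted p = 6.33e-06) and of 0.06 in HSC3 cells (adjusted p = 0.745). BIRC2 and BIRC3, genes of the apoptosis inhibitors cIAP1 and cIAP2, lie 142 and 181 kb away. BIRC2 was at -0.40 (SE 0.0418) in CAL27 and 0.08 (SE 0.0883) in HSC3 cells, whereas BIRC3 fell by 1.01 (SE 0.0557, adjusted p = 1.59e-11) in CAL27 cells and was at 0.93 (SE 0.120, adjusted p = 0.000181) in HSC3 cells, under the fold threshold. On the MMP13 side, DCUN1D5 had 0.09 and 0.08, and DYNC2H1 -0.12 and -0.42. PDGFD, the next gene, was too low to be tested. Inside the cluster, MMP8 had at most 16 counts in a library, MMP20 at most 8 and MMP27 none, so that of its 9 MMP genes the 6 described here were the ones with testable levels.

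**Figure D4:**
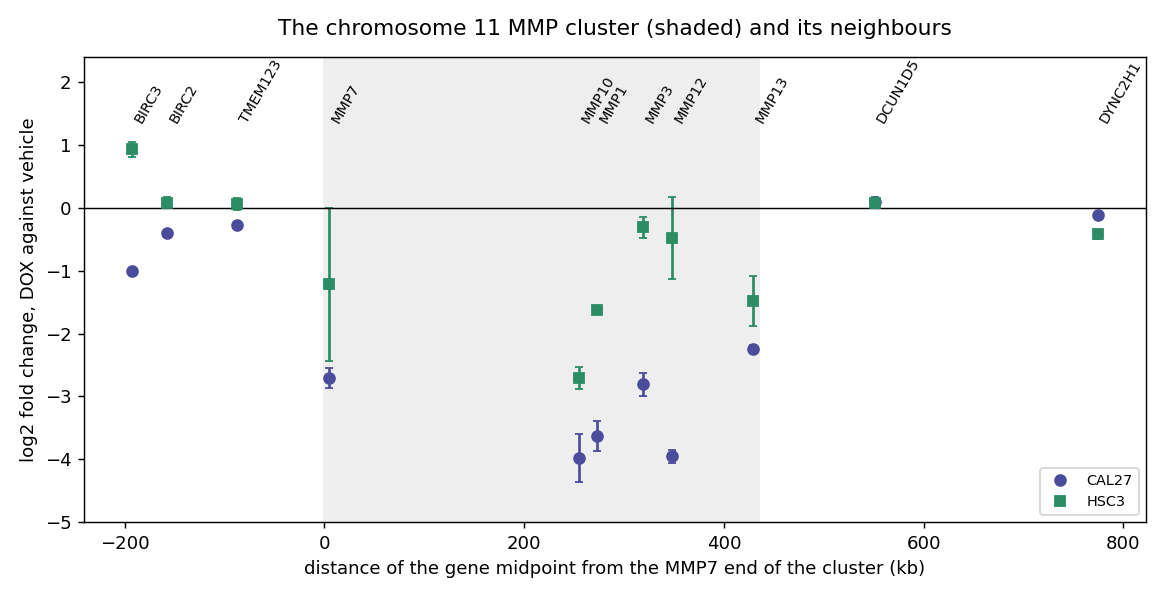
The log2 fold change of DOX against vehicle in CAL27 (circles) and HSC3 cells (squares), with bars of 1 standard error, is drawn against the distance of each gene's midpoint from the MMP7 end of the chromosome 11 cluster, in kb. Inside the shaded cluster the values run from -3.98 to -2.25 in CAL27 cells and from -2.71 to -0.31 in HSC3 cells. The tested neighbours outside it run from -1.01 to 0.09 in CAL27 cells and from -0.42 to 0.93 in HSC3 cells, where they overlap with the cluster.

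Of the other 13 MMP genes, 9 were tested in CAL27 cells, with a median of 0.09, and 2 were called lower (22.2%, beside 5.11% of all genes). MMP11, stromelysin-3, had 78, 70 and 98 counts in the vehicle libraries against 36, 18 and 60 in the DOX libraries (log2 -1.02, adjusted p = 0.0111), and MMP25, a membrane-anchored enzyme of leukocytes, had 61, 47 and 32 against 11, 17 and 18 counts (log2 -1.47, adjusted p = 0.00381). Neither passed in 1 fit over all 12 libraries (adjusted p = 0.438 and 0.437), and MMP11 was also lost without vehicle replicate 3 (0.0701) or DOX column 5 (0.065). Of the MMP25 exons 30.6% lie under its antisense gene. In HSC3 cells 8 were tested, with a median of -0.53, and 1 was called higher (12.5%, beside 1.58% of all genes). Whether these genes differ from the 10 MMPs was not tested. MMP15, like MMP14 a membrane-type enzyme, rose from 8.76, 9.46 and 8.76 CPM to 17.6, 26.2 and 21.0 CPM (log2 1.27, SE 0.142, adjusted p = 7.04e-05), and in CAL27 cells it was at 26.1, 27.8 and 27.1 against 36.2, 34.5 and 32.9 CPM (log2 0.36, adjusted p = 1.1e-05). MMP16, MMP17, MMP19, MMP21 and MMP24 were tested and not called within either line, MMP23B was tested in CAL27 cells and not called, and MMP26 had no counts. The interaction of MMP16 was called in the opposite direction to the 4 MMPs above (-3.07, SE 0.705, adjusted p = 0.00559), from 24, 8 and 12 against 0, 0 and 6 counts in HSC3 cells.

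The inhibitors of these enzymes did not rise past the threshold in either line. Of 6 inhibitor genes, 6 were tested in CAL27 cells with a median of 0.27 and none was called by edgeR or DESeq2, though at an unadjusted p under 0.05 3 were higher and 1 lower. TIMP1 was at 21.1, 21.4 and 18.0 CPM with vehicle and 29.0, 28.0 and 27.6 CPM with DOX there (log2 0.49, SE 0.0637, adjusted p = 2.87e-06), under the fold threshold. In HSC3 cells 4 were tested with a median of -0.21, and TIMP3, the inhibitor that binds to the matrix, was called lower, beside 4.4% of all genes. It went from 53.4, 59.9 and 57.6 CPM to 21.5, 20.9 and 20.6 CPM (log2 -1.44, SE 0.0782, adjusted p = 4.93e-07), while in CAL27 cells it was at 14.6, 14.0 and 14.3 against 16.8, 15.1 and 14.3 CPM. That difference between the lines was itself called (-1.54, SE 0.106, adjusted p = 1.69e-07). TIMP2, which together with MMP14 takes part in the activation of proMMP2, was at 108, 108 and 106 against 119, 116 and 110 CPM in CAL27 cells and at 112, 114 and 112 against 94.6, 95.8 and 95.6 CPM in HSC3 cells (log2 0.10 and -0.24).

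The proteases that activate proMMPs changed in single genes. Of the genes of plasminogen activation, none of the 8 tested in HSC3 cells was called by edgeR or DESeq2, with 5 higher and 1 lower at an unadjusted p under 0.05. PLAU, the gene of urokinase, was lower but under the fold threshold in both, at -0.87 (adjusted p = 2.61e-12) in CAL27 and -0.72 (6.25e-06) in HSC3 cells. Of 9 other activating proteases, 8 were tested in CAL27 cells with a median of 0.07, and the proprotein convertase PCSK5 (-1.14, SE 0.068) and the membrane serine protease TMPRSS2 (-1.08, SE 0.114) were called lower, beside 5.11% of all genes, the latter at -0.99 and not called without DOX column 6. In HSC3 cells 7 were tested with a median of -0.08, and the kallikrein KLK5 fell from 215, 223 and 205 CPM to 43.2, 57.8 and 59.4 CPM (log2 -2.00, SE 0.11, adjusted p = 5.2e-07). KLK5 was at 116, 107 and 99.7 against 129, 122 and 131 CPM in CAL27 cells, and the difference between the lines was -2.25 (adjusted p = 4.89e-08).

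Among 12 genes of the related ADAM and ADAMTS proteases, ADAMTS1, which cleaves proteoglycans, was the only one called within a line. It was called higher in both, beside 1.31% of all genes in CAL27 and 1.58% in HSC3 cells. It was at 4.40, 4.54 and 3.50 CPM with vehicle and at 13.3, 13.7 and 17.0 CPM with DOX in CAL27 cells (log2 1.82, SE 0.11, adjusted p = 5.11e-10). In HSC3 cells it was at 53.8, 47.9 and 37.7 against 119, 121 and 116 CPM (log2 1.36, SE 0.111, adjusted p = 7.48e-06). The vehicle and DOX libraries did not overlap in either line. The medians over the 10 and 8 genes tested were 0.04 and -0.10. The interaction was called for ADAM28 (adjusted p = 0.04), which had 0 counts in all 3 vehicle-treated HSC3 libraries and 111, 0 and 24 counts with DOX, so that the ranges touch at 0.

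Factors that bind the AP-1, ETS and RUNX motifs of MMP promoters were followed as a list of 17. In CAL27 cells 16 were tested with a median of 0.23, 3 were called higher, beside 1.31% of all genes, and 1 lower, beside 5.11%. FOSL1, an AP-1 subunit, rose from 52.3, 50.4 and 43.3 CPM to 196, 202 and 224 CPM (log2 2.09, SE 0.0769, adjusted p = 1.29e-08), and ETV5 and ETV1, PEA3-type ETS factors, rose by 1.21 (SE 0.0477) and 1.16 (SE 0.0883). The epithelial ETS factor ELF3 fell by 1.07 (SE 0.0737, adjusted p = 4.98e-08). None of the 16 tested was called in HSC3 cells by edgeR or DESeq2, where the median was 0.07 and 3 were lower and 1 higher at an unadjusted p under 0.05. FOSL1 was there at 642, 659 and 694 against 495, 565 and 574 CPM, and its difference in response between the lines was -2.38 (SE 0.107, adjusted p = 5.2e-09).

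Cytokines and growth factors that are known to induce MMPs moved in both directions in CAL27 cells and were mostly lower in HSC3 cells. Of 12, 10 were tested in CAL27 cells with a median of 0.35. At an adjusted p under 0.05 without the fold threshold, 4 were lower, beside 21.8% of all genes, and 5 were higher. With the fold threshold 1 was called lower, beside 5.11%, and 2 were called higher, beside 1.31%. The chemokine CXCL8 fell from 46.0, 38.6 and 45.7 CPM to 19.3, 15.1 and 13.3 CPM (log2 -1.45, SE 0.157, adjusted p = 0.000786), whereas the EGFR ligand AREG (1.13, SE 0.0724) and the cytokine IL6 (1.13, SE 0.108) rose. In HSC3 cells 11 were tested with a median of -0.52. At an adjusted p under 0.05 without the fold threshold, 9 were lower there, beside 15.4% of all genes, and 1 was higher. The EGFR ligands EREG and TGFA were called lower, beside 4.4%, and fell by 1.60 (SE 0.113) and 1.11 (SE 0.0613). IL6 was called higher, beside 1.58%, and rose by 1.55 (SE 0.234, adjusted p = 0.000543). EREG went from 583, 537 and 663 CPM to 232, 174 and 181 CPM in HSC3 cells, and its response differed between the lines by -2.56 (SE 0.15, adjusted p = 3.84e-08).

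Of 11 genes of matrix and basement membrane proteins cleaved by MMPs, NID1, the basement membrane linker nidogen-1, fell in both lines, by 1.71 (SE 0.209, adjusted p = 1.14e-06) in CAL27 and by 2.42 (SE 0.403, adjusted p = 0.00103) in HSC3 cells. FN1, the gene of fibronectin, rose in HSC3 cells from 113, 113 and 116 CPM to 502, 535 and 556 CPM (log2 2.22, SE 0.0617, adjusted p = 1.53e-08). In CAL27 cells FN1 was at 38.9, 39.9 and 39.8 against 37.6, 41.4 and 41.5 CPM, and the difference between the lines was called (2.20, SE 0.0715, adjusted p = 9.68e-11). The medians over the 11 and 10 genes tested were 0.22 and -0.41, and no other gene of this list was called in either line. Over all genes, 5.11% were called lower in CAL27 and 4.4% in HSC3 cells, and 1.31% and 1.58% were called higher.

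**Figure D5:**
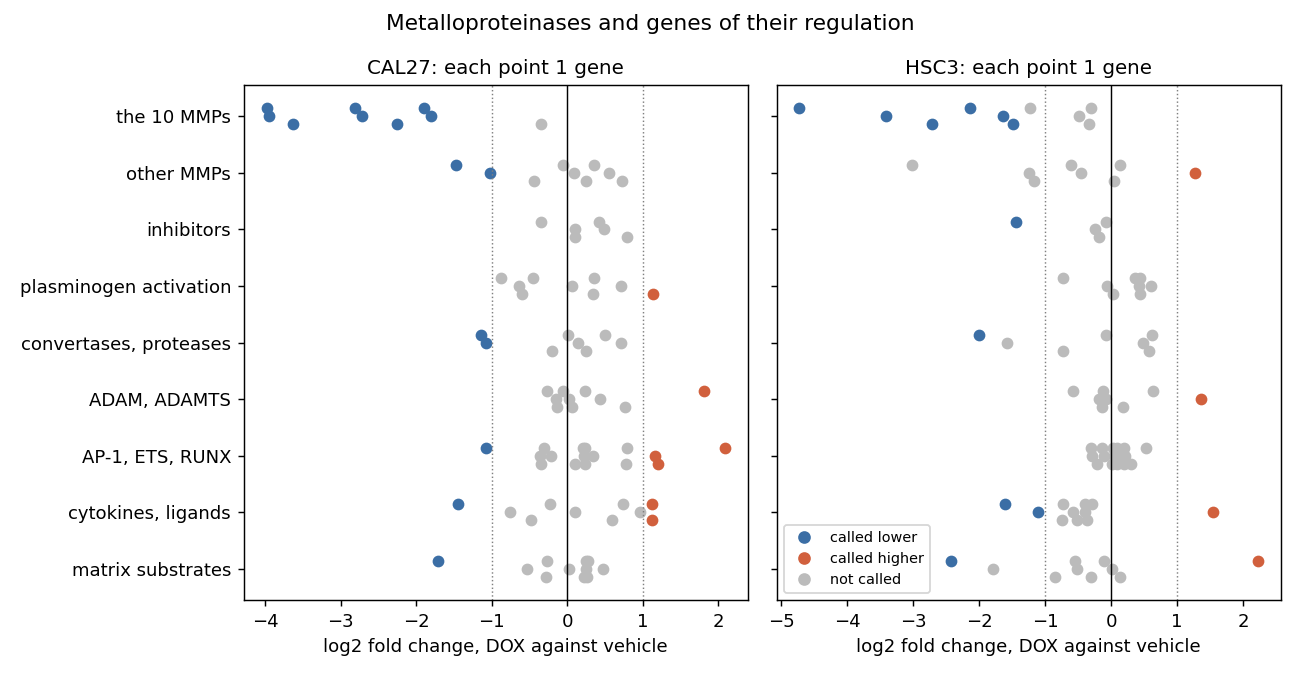
Each point is the log2 fold change of DOX against vehicle of 1 tested gene, by list, in CAL27 (left) and HSC3 cells (right), in blue where called lower, orange where called higher and grey where not called. The top row, the MMPs described here, lies to the left with medians of -2.71 and -1.55, and the other lists drawn have medians between -0.53 and 0.39 (cell type markers are not drawn).

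For each MMP whose log2 CPM averaged 3 or more, the genes most like it over the 6 libraries of a line were found by Pearson's r, as a description. The points share 2 treatment groups, so that a gene moved by DOX correlates with any other. Among 9750 genes in CAL27 cells, MMP1 was closest to SP100, KRT15 and IFIT3 (r = 0.9998, 0.9996 and 0.9996), MMP13 to CLDN1, HERC6 and IFI27 (0.9999, 0.9998 and 0.9998), and MMP10 to TC2N, CUTALP and SHFL (0.9997 each). IFIT3, HERC6 and IFI27 are interferon-stimulated genes, and KRT15 is a basal keratin. MMP14 was closest to TPM1, PRKCD and SAYSD1 in CAL27 cells (0.9988, 0.9968 and 0.9966). Among 9192 genes in HSC3 cells, MMP1 was closest to CD74, PANX1 and SLC7A8 (0.9995, 0.9994 and 0.9994), and MMP14 to BSG, SPSB1 and DCTD (0.9993, 0.9985 and 0.9976). BSG, the gene of basigin, is itself known as an inducer of MMPs and was on the list of inducers above, with a log2 fold change of -0.37 in HSC3 cells. No gene was among the 3 most like the same MMP in both lines.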

How the data were processed

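Total RNA was extracted with TRIzol and made into TruSeq Stranded mRNA libraries. Per the labels' processing notes the submitters used FastQC 0.11.9, STAR 2.7.9a, Subread 2.0.1 and featureCounts with GRCh38. The strand setting, the handling of duplicates and the annotation counted are not given in the sources used here. The authors deposited 1 table of whole-number counts per line, not normalized, with genes by symbol. The CAL27 DOX columns are numbered 4 to 6 and were mapped to their group without a replicate number.

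Counts were analysed in R 4.3.3 with edgeR 4.0.16 (TMM, filterByExpr at its settings of 10 counts and 15 in total, robust quasi-likelihood test, two-sided). Each line was fitted alone, and the interaction and the baseline difference came from 1 fit of all 12 libraries. Calls needed an adjusted p under 0.05 (Benjamini-Hochberg, over the whole table tested) together with a change of more than 1 on the log2 scale. An exact permutation test of 3 against 3 cannot go below p = 0.1 and was not used. The fits were also run on simulated counts, and the outcome is not reported here. Coordinates and exon lengths come from GENCODE v44, where all 127 list genes matched. The number of counts per molecule came from the share of zeros among genes expected at 8 to 16 counts.

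The 10 genes and all lists were chosen with earlier results of these data known. The genes named are these 10, MUC1, the up to 3 called genes with the largest change in each list and line, the detected MMPs, the 3 genes most like each abundant MMP and the neighbours of the cluster. TIMP1, TIMP2, PLAU, ELF3 and the other epithelial markers beyond the 3 of the rule were named after their values were seen. Alternatives were other size factors, library totals, other filters, DESeq2 1.42.0, a fold change of 1.5, counts divided by the counts per molecule, 1 fit over all libraries, coding length, a replicate block and each library left out. A result of the plasminogen activation list is not reported here.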

Additional observations from a re-analysis of the deposited data

Results flagged for a closer look

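For 4 genes the response to DOX differed between the lines by the test of the interaction, and these differences are listed here for a closer look. On the log2 scale, as HSC3 minus CAL27, they were 2.00 for MMP1, 2.49 for MMP3, 1.26 for MMP10 and 3.52 for MMP12, each a smaller reduction in HSC3 cells. MMP12 had 15 to 70 counts in the HSC3 libraries, and MUC1 itself fell less in HSC3 cells (1.36). After division by the counts per molecule the differences were 1.26 for MMP10 and 1.31 for MUC1, and were not called (adjusted p = 0.289 and 0.0965). In CAL27 cells the stretches that MMP3 shares with MMP10 would carry 11.9 CPM of MMP10 with vehicle, against 3.17 CPM of MMP3 in all. The part of these in the differences was not tested.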

How the results depend on the processing

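In CAL27 cells 8 MMPs were called lower under every alternative run, and at baseline 5 were called lower in HSC3 cells under every one. The other counts varied. In HSC3 cells 5 were called lower with no filter on low counts, where MMP28 was lost (adjusted p = 0.0501), and 4 to 6 with 1 library left out. In the difference between the lines 3 were called higher with no filter and after division by the counts per molecule, where MMP10 was lost (adjusted p = 0.105 and 0.289), and 3 to 6 with 1 library left out, as given in the report. MUC1 was not called in that difference when counts were divided by the counts per molecule (adjusted p = 0.0965). At a fold change of 1.5 MMP3 made 4 called higher at baseline. The difference of MMP14 changed sign without being called, from -0.06 to 0.14 with 1 library left out. By coding length MMP13 held 53.0% in vehicle-treated CAL27 cells, and MMP14 held 58.1% and 77.4% in HSC3 cells with vehicle and DOX. Of 633 results of single MMPs under alternatives, 617 kept their direction and side of the threshold. Among 586 results of other listed genes, 23 lost their call and 0 changed sign. The cause of these changes was not tested. Low counts limit MMP7, MMP9, MMP12, MMP13 and MMP28 in HSC3 cells.

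A replicate block was fitted in HSC3 cells, where columns carry the labels' numbers, and 6 MMPs were called lower as without it, with MMP1 at -1.63. Deviations of same-numbered libraries correlated at -0.0965, 0.101 and -0.0934, so the numbers were not taken as pairs. Of the genes named, ITGAM lost its call with the block (adjusted p = 0.0928). No paired analysis was possible in CAL27 cells because the DOX columns carry other numbers than the samples.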
